A study of Homo sapiens with 9 samples.

Results

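The enzymes that make cholesterol and fatty acids, together with the proteins that switch their genes on, were examined in human mammary epithelial cells carrying a hairpin against RND1. The members were the genes of a list of 33 symbols, matched to probes by annotated symbol. Of the 33, 31 had a named probe and 29 were measured, out of 8931 measured genes among 18852 named ones. A probe counted as measured when its detection p, the array software's test against negative control beads, was under 0.01 on at least 3 of the 9 arrays, and the brightest probe stood for the gene. FDFT1 (squalene synthase) and ACSL3 (an acyl-CoA synthetase) were not analysed here. SREBF2, the gene of the sterol-regulated transcription factor SREBP2, and STARD4, a sterol carrier, had a probe detected on 0 of the 9 arrays. The SREBF2 signal lay between 57.7 and 112 with a lowest detection p of 0.0119, and that of STARD4 between 31.7 and 73.5 with a lowest detection p of 0.0395. FADS2 was nearest to the filter from inside, measured on 8 of 9 arrays, with 1 sh-35 array missing. The other 28 members were measured on all 9.

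The cells were MCF10A, an immortalized, non-tumorigenic human breast epithelial line. Every sample, controls included, carried a lentiviral hairpin construct and had gone through puromycin selection. There were 3 samples with a scramble control hairpin, 3 with RND1 hairpin sh-34 and 3 with RND1 hairpin sh-35, and total RNA was hybridized to Illumina bead arrays. Neither the time of harvest nor the use of separate cultures within a group is stated, so a p-value here reflects only the scatter of these samples and that scatter may be technical.

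The RND1 probe was above background on 0 of 9 arrays, with signals of 27.7 to 49.6, so the knock-down could not be checked here. Between 23.5% and 26.4% of the probes were above background on an array, and Pearson's r of log2 values between arrays was 0.993 to 0.994 within groups and 0.960 to 0.973 between them. The median SD of a gene within a group was 0.12 on the log2 scale. The basal cell genes KRT5, KRT14, EGFR and ITGB4 and the epithelial genes CDH1, EPCAM, KRT8 and KRT18 were measured on all 9 arrays, while KRT19 was on 0. Immune genes PTPRC, CD3E, CD163 and LYZ, the fibroblast genes COL1A2, COL3A1, LUM and PDGFRB, and 4 of 5 genes each of endothelial cells and adipocytes were on 0 arrays. COL1A1 was on 1 array, PDGFRA on 5, and the macrophage gene CD68, which other cells also express, on all 9. CD68 was lower with sh-34 (−0.54, limma adjusted p = 0.000285) and higher with sh-35 than with sh-34 (0.64, limma adjusted p = 6.23e-05). With scramble, sh-34 and sh-35, mean log2 signals were 11.60, 10.83 and 9.74 for CDH1 and 10.62, 10.10 and 8.74 for EPCAM. They were 9.19, 9.11 and 8.53 for KRT8 and 7.39, 7.80 and 7.49 for KRT18. For the basal genes, 4 of 8 with a probe, the summed signal was 20924 to 23906 with scramble, 15661 to 16271 with sh-34 and 15787 to 17572 with sh-35. For the 5 epithelial genes it was 5307 to 6552 with scramble, 3830 to 4258 with sh-34 and 2064 to 2382 with sh-35. For the 7 fibroblast genes, of which DCN was measured on all arrays, it was 5096 to 6790, 3908 to 4883 and 7620 to 7847. Singly, 3 of the 4 basal genes passed as lower and 1 as higher with sh-34. With sh-35, 2 passed as lower and 2 did not pass. In the same group order, KRT14 read 12.49, 10.65 and 11.41, KRT5 13.01, 12.59 and 12.97, and ITGB4 11.74, 12.16 and 11.41 (mean log2). The basal and epithelial sums were lower with each hairpin, and the fibroblast sum was lower with sh-34 and higher with sh-35. The part of these sums in the results was not tested. In bulk RNA, fewer cells of a type and less RNA per cell cannot be told apart.

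Cholesterol is built from acetyl-CoA through mevalonate, isoprenoid units, squalene and lanosterol. Fatty acids are built from the same acetyl-CoA, which is carboxylated, polymerized, and then elongated and desaturated. In animal cells the transcription factors SREBP1 and SREBP2 raise most genes of both routes when membrane sterol is low. SCAP carries them out of the endoplasmic reticulum for cleavage, and the INSIG proteins hold them back there when sterols are plentiful. At the promoters, SREBPs work with NF-Y, a factor that binds the letters CCAAT, and with SP1.

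Promoter windows of 300 bases, 250 before to 50 after the RefSeq start (build GRCh38.p14), were matched by symbol for 29 of the 33 members, all but SQLE, FDFT1, FASN and ACAT2. The letters CCAAT, read on either strand, stood in the windows of 22 of 29 members (75.9%) and in those of 39.7% of 27305 genes. The sterol regulatory element TCACNCCAC stood in 1 member, SREBF2 (3.45%), against 1.39% of genes, and the E-box CACGTG, read the same on both strands, in 5 (17.2%) against 8.77%. The 29 members had 39 windows, and a member, like any gene, counted if 1 or more of its windows held the letters. These are letter matches in a fixed window and not measured binding sites. The 250 bases upstream of the start are shown for 6 genes whose changes carry the results below, chosen after their values were seen. Where a gene had more than 1 window, the window with the most CCAAT was taken. The HMGCS1 window not shown (chr5:43313132-43313431) held 0, and that of ACLY, which overlaps the one shown, held 2. Capitals mark CCAAT or its reverse complement ATTGG, and each run is 5′ to 3′ on the gene's own strand. The mevalonate genes MVD (chr16:88663092-88663341, minus strand) and HMGCS1 (chr5:43313413-43313662, minus strand) and the sterol gene NSDHL (chrX:152830813-152831062, plus strand) held 3, 2 and 5 such boxes, of which a pair overlaps in NSDHL.
MVD: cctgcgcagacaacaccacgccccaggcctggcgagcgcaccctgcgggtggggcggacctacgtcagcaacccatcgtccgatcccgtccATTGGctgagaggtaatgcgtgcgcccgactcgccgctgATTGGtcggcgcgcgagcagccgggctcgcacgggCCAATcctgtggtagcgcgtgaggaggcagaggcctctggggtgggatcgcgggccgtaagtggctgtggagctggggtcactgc
HMGCS1: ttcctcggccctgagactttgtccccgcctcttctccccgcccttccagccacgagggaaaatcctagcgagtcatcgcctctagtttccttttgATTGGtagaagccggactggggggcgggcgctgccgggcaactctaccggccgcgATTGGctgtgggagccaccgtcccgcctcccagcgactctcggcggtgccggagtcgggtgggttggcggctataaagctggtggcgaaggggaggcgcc
NSDHL: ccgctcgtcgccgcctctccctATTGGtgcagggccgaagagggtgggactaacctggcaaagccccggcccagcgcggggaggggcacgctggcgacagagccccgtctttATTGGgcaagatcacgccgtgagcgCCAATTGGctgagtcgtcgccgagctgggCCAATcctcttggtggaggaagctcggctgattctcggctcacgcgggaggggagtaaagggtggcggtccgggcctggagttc
The fatty acid genes ACLY (chr17:41919023-41919272, minus strand) and SCD (chr10:100346983-100347232, plus strand) held 2 each, and ELOVL6 (chr4:110198616-110198865, minus strand) held 0.
ACLY: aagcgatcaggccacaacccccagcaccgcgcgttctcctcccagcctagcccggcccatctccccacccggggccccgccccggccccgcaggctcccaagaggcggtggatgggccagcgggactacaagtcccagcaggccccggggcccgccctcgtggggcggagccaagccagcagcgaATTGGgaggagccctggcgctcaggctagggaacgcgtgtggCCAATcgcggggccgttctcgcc
SCD: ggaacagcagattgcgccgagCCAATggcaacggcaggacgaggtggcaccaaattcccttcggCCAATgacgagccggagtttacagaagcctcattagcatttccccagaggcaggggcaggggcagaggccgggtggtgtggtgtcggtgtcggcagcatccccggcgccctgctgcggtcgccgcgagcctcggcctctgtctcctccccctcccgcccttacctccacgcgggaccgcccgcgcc
ELOVL6: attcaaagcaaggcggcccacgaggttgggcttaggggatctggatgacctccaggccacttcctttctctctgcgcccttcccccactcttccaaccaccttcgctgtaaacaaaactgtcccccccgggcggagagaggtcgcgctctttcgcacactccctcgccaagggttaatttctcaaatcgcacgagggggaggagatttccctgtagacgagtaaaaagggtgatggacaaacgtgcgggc
Among the 19 measured members with CCAAT in the window, 10 were lower with sh-34 and 14 with sh-35, with median log2 changes of −0.27 and −0.45. Among the 7 without it, 2 were lower with sh-34, and with sh-35 4 were lower and 1 was higher, with medians of −0.12 and −0.32. Over all tested genes with a window, those with CCAAT numbered 3292, of which 19.3% were lower with sh-34 and 22.3% with sh-35. Of the 4142 without it, 17.7% and 20.8% were lower. These counts are a description, and the difference between members with and without CCAAT was not tested.

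Fitted changes against scramble lay below 0 for 25 of the 29 measured members with each hairpin, and all members that passed the test were lower except FADS1 with sh-35. With sh-34, 12 of 29 members fell, 0 rose and 17 did not pass (limma, Benjamini-Hochberg adjusted p under 0.05 over all genes). The share called was 41.4%, close to the 37.5% of all tested genes that were called in either direction, while 18.5% of all genes were lower and 19% higher. With sh-35, 19 fell, 1 rose and 9 did not pass, a share called of 69% against 41.8% of all genes. Of all genes, 21.4% were lower and 20.4% higher with sh-35. The median log2 change of the members was −0.20 with sh-34 and −0.42 with sh-35, beside medians over all genes of 0.02 and −0.02. Changes ran from −1.11 to 0.21 and from −0.92 to 0.31. For the mean of both hairpins, 18 of 29 members were lower and 0 higher, beside 40.7% of all genes called, 20.9% lower and 19.9% higher. The samples of the 2 groups did not overlap for 16 of 29 members with sh-34 and for 22 with sh-35, beside 50% and 51.9% of all genes. Both hairpins were set against the same 3 scramble samples, so their changes are not independent of each other.

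The sh-34 count rested on single samples more than the sh-35 count did. It was 6 of 29 without scramble replicate 2, when 31.7% of all genes were called and 15.3% were lower. Without sh-34 replicate 2 it was 7, when 31.2% of all genes were called and 15.8% were lower. It was 8, 9 and 8 without scramble replicate 3, sh-34 replicate 1 and sh-34 replicate 3. Of all genes, 31.7%, 32.2% and 30.8% were then called, and 15.6%, 16.3% and 15.3% were lower. Called in either direction, the members' share was below that of all genes in each of these fits, and all members called were lower. Between 17 and 20 members were called with sh-35 when any 1 sample was left out. With median scaling of the arrays in place of quantile normalization, 14 members were lower with sh-34 and 21 with sh-35, beside 19.4% and 23% of all genes. Under that scaling 39.4% of all genes called with sh-34 were higher, against 50.6% with quantile normalization.

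**Figure D1:**
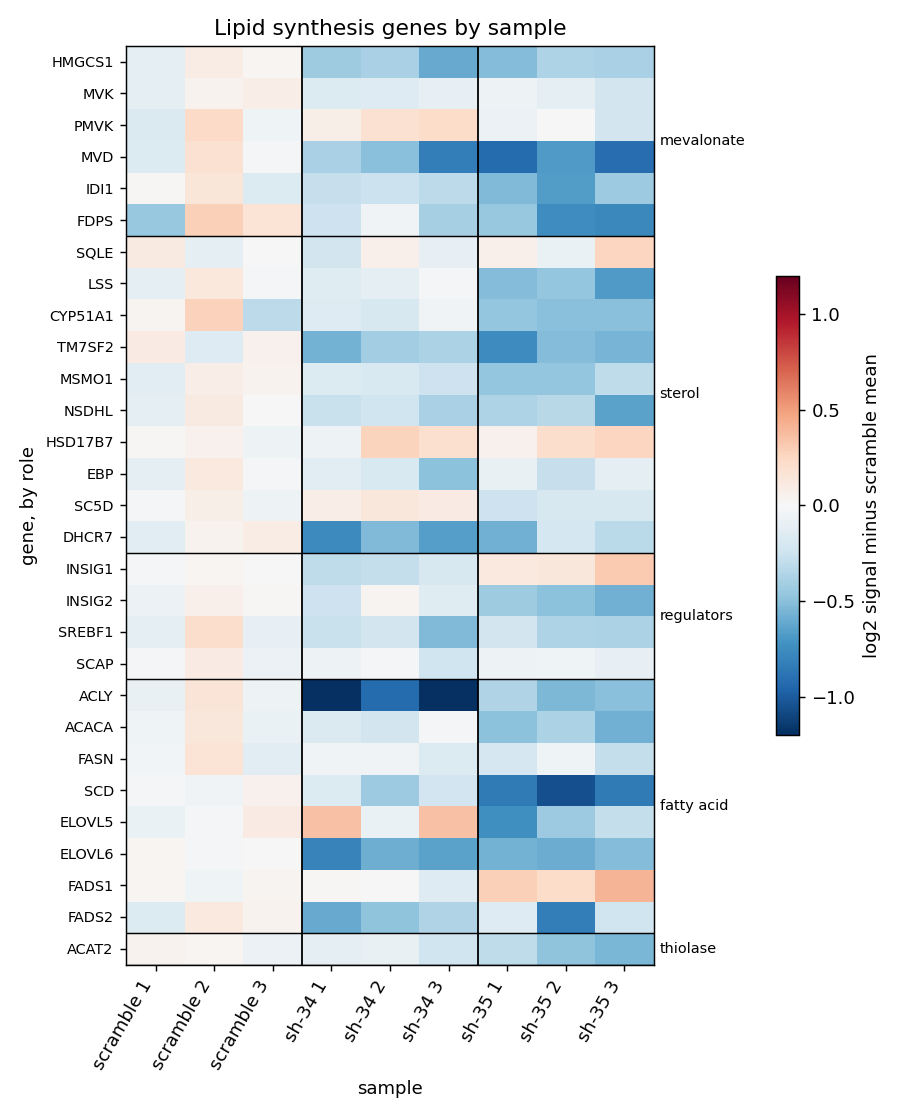
Heat map of 29 measured lipid synthesis genes (vertical axis, grouped by role) in the 9 samples (horizontal axis); colour is the log2 signal less the mean of the 3 scramble samples. Among the darkest cells are ACLY in the sh-34 samples, where the fitted change was −1.11, and SCD in the sh-35 samples, where it was −0.92. Most members are blue in the sh-35 samples.

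The 6 genes of the mevalonate route fell in part with both hairpins. MVD, which decarboxylates mevalonate pyrophosphate, fell most of the 6. Its log2 signal was 9.38, 9.72 and 9.53 in the scramble samples, 9.15, 9.04 and 8.71 with sh-34, and 8.61, 8.87 and 8.63 with sh-35. Every hairpin sample lay below every scramble sample. The sh-34 fall was 0.58 (SE 0.13, limma adjusted p = 0.00462) and the sh-35 fall 0.84 (SE 0.13, limma adjusted p = 0.000303), or 1.49-fold and 1.79-fold lower. HMGCS1, which makes HMG-CoA at the head of the route, read 12.39, 12.59 and 12.53 with scramble, 12.07, 12.11 and 11.90 with sh-34 and 11.98, 12.14 and 12.12 with sh-35. Again the groups with a hairpin did not overlap the scramble group, and both falls passed, by 0.48 (SE 0.09, limma adjusted p = 0.00174) and 0.42 (SE 0.09, limma adjusted p = 0.00281).

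IDI1, which isomerizes the isoprenoid unit, read 10.11, 10.24 and 9.93 with scramble, 9.82, 9.83 and 9.79 with sh-34, and 9.56, 9.42 and 9.66 with sh-35. The 3 groups stood apart in that order. The IDI1 fall was 0.28 for sh-34 (SE 0.10, limma adjusted p = 0.0375) and 0.55 for sh-35 (SE 0.10, limma adjusted p = 0.000808). FDPS, which joins the units to farnesyl pyrophosphate, varied more among scramble samples: 10.30, 11.05 and 10.92, against 10.50, 10.72 and 10.36 with sh-34 and 10.30, 10.01 and 9.98 with sh-35. The first scramble sample was as low as the highest sh-35 sample to 2 decimals, and the sh-34 values lay inside the scramble range. The sh-35 fall of 0.66 passed (SE 0.17, limma adjusted p = 0.00995), and the sh-34 change of −0.23 did not (95% interval −0.61 to 0.15, limma adjusted p = 0.33). Without scramble replicate 1 the FDPS change with sh-34 was −0.46 and passed (limma adjusted p = 0.0211), and it ran down to −0.08 without scramble replicate 2. The kinase genes MVK and PMVK passed with neither hairpin. The MVK changes were −0.14 (95% interval −0.32 to 0.04) with sh-34 and −0.13 (−0.31 to 0.05) with sh-35, and those of PMVK were 0.16 (−0.08 to 0.39) and −0.10 (−0.33 to 0.14). In all, 3 of 6 mevalonate genes fell with sh-34 and 4 of 6 with sh-35, with medians of −0.26 and −0.48. Those shares were 50% and 66.7%, beside 37.5% and 41.8% of all genes called, 18.5% and 21.4% lower.

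Of the 10 measured genes from squalene to cholesterol, 3 fell with sh-34 and 7 with sh-35, and 0 rose with either. The medians were −0.16 and −0.39. The share called was 30% with sh-34, below the 37.5% of all genes, and 70% with sh-35 against 41.8%. Of all genes, 18.5% were lower with sh-34 and 21.4% with sh-35. TM7SF2, a sterol reductase, fell with both. It read 8.94, 8.69 and 8.90 with scramble, 8.28, 8.43 and 8.47 with sh-34 and 8.09, 8.32 and 8.29 with sh-35, so all 6 hairpin samples were below all 3 scramble samples. Its falls were 0.45 (SE 0.10, limma adjusted p = 0.00392) and 0.61 (SE 0.10, limma adjusted p = 0.000449). DHCR7, the reductase that completes cholesterol, read 11.02, 11.19 and 11.24 with scramble, 10.39, 10.62 and 10.49 with sh-34 and 10.58, 10.94 and 10.83 with sh-35. No hairpin sample reached a scramble sample, and the sh-35 group overlapped the sh-34 group at its lowest sample. DHCR7 fell by 0.66 (SE 0.11, limma adjusted p = 0.000697) and by 0.37 (SE 0.11, limma adjusted p = 0.017), and its second probe fell with both as well, by 0.59 and 0.51.

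NSDHL, which removes a methyl group from the sterol ring, read 10.88, 11.11 and 11.00 with scramble, 10.73, 10.76 and 10.60 with sh-34 and 10.63, 10.66 and 10.36 with sh-35. It was lower in all 6 hairpin samples, by 0.30 (SE 0.10, limma adjusted p = 0.035) and 0.45 (SE 0.10, limma adjusted p = 0.00386). LSS, the cyclase that closes the sterol rings, passed with sh-35 alone. Its values were 10.88, 11.13 and 10.97 with scramble, 10.85, 10.88 and 10.97 with sh-34 and 10.47, 10.53 and 10.31 with sh-35. The scramble and sh-34 groups overlapped, and sh-35 stood below both. LSS fell by 0.56 with sh-35 (SE 0.09, limma adjusted p = 0.000488) against a change of −0.09 with sh-34 (95% interval −0.29 to 0.10), and sh-35 was below sh-34 by a tested log2 difference of −0.46 (limma adjusted p = 0.0017). The second LSS probe read −0.10 and −0.39 and passed with neither (limma adjusted p = 0.742 and 0.142). Adjusted p-values of second or dimmer probes, here and below, came from a fit of all 12866 measured probes instead of 1 per gene.

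CYP51A1, the demethylase that acts on lanosterol, read 9.74, 9.98 and 9.39 with scramble, 9.55, 9.51 and 9.66 with sh-34 and 9.24, 9.21 and 9.20 with sh-35. Only the sh-35 samples lay below the scramble range, a fall of 0.49 (SE 0.12, limma adjusted p = 0.00804). MSMO1, a methyl sterol oxidase, read 12.99, 13.20 and 13.16 with scramble, 12.95, 12.94 and 12.87 with sh-34 and 12.65, 12.65 and 12.81 with sh-35. The 3 groups did not overlap, and the sh-35 fall of 0.41 passed (SE 0.08, limma adjusted p = 0.00218), while the sh-34 change of −0.20 did not (limma adjusted p = 0.0895). MSMO1 with sh-34 passed at −0.30 with median scaling (limma adjusted p = 0.0415) and on the deposited log2 values (0.049), at −0.24 as the mean of its probes (0.0413) and at −0.26 without scramble replicate 1 (0.0474). On the second MSMO1 probe neither change passed, at −0.28 with sh-34 and −0.22 with sh-35 (limma adjusted p = 0.0935 and 0.181). SC5D, a sterol desaturase, read 11.24, 11.32 and 11.19 with scramble, 11.33, 11.39 and 11.36 with sh-34 and 11.01, 11.06 and 11.06 with sh-35. The sh-35 fall was small, 0.21 (SE 0.07, limma adjusted p = 0.0362).

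Neither hairpin gave a call for SQLE, HSD17B7 or EBP. SQLE, the epoxidase that starts the conversion of squalene, read 12.68, 12.47 and 12.57 with scramble, 12.35, 12.64 and 12.48 with sh-34 and 12.63, 12.50 and 12.83 with sh-35. All 3 groups overlapped, and the changes were −0.08 (95% interval −0.32 to 0.15) and 0.08 (−0.15 to 0.32). HSD17B7, a sterol ketone reductase, gave 0.13 (−0.09 to 0.35) and 0.17 (−0.04 to 0.39). EBP, a sterol isomerase, gave −0.27 (limma adjusted p = 0.075) and −0.16 (limma adjusted p = 0.256). The EBP change with sh-34 passed with median scaling (limma adjusted p = 0.0247), cyclic loess (0.0434), the deposited log2 values (0.0178) and without sh-34 replicate 1 (0.0492).

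**Figure D2:**
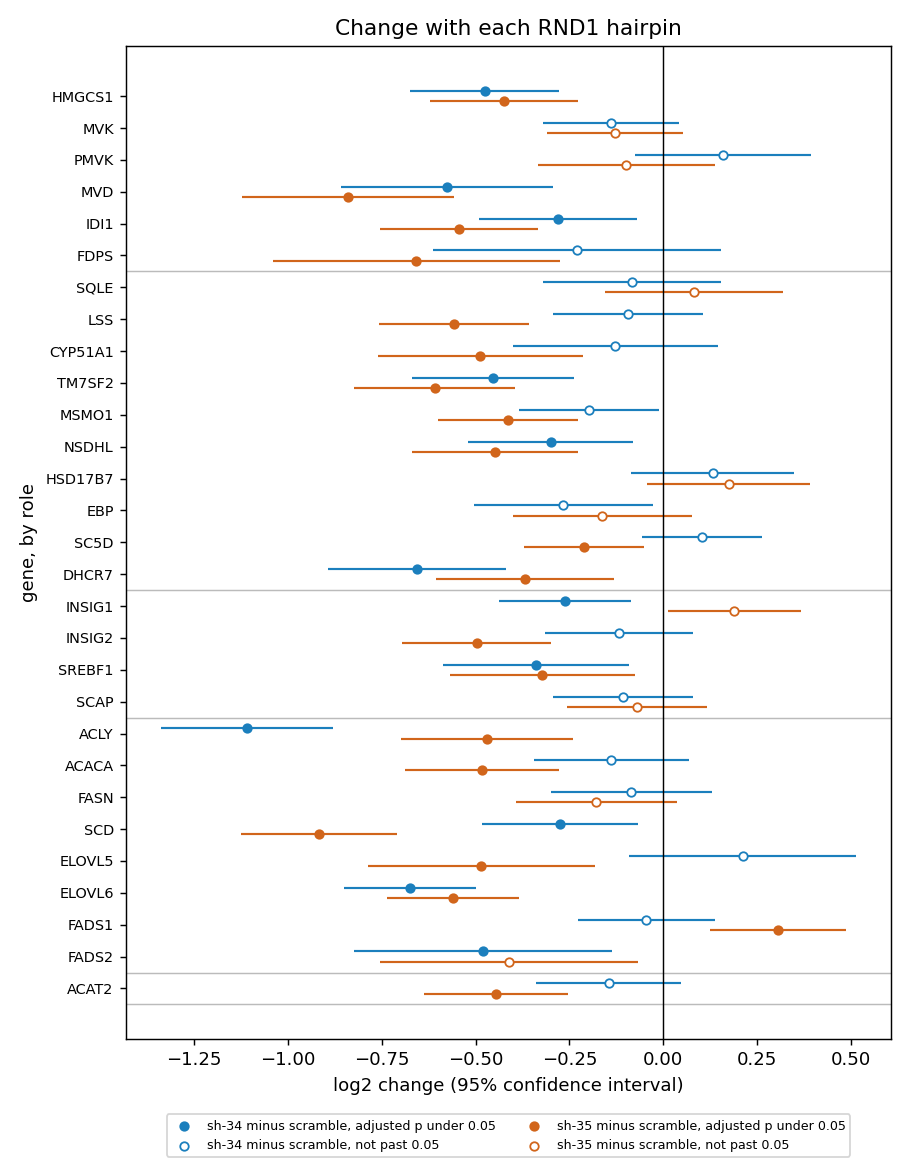
Log2 change against scramble with its 95% confidence interval (horizontal axis) for each of 29 genes (vertical axis, by role), sh-34 in blue and sh-35 in orange; filled points passed an adjusted p of 0.05. Most points lie left of 0, from −1.11 for ACLY with sh-34 to 0.31 for FADS1 with sh-35.

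Of the 4 measured regulators, 2 were lower with sh-34 and 2 with sh-35, or 50% each. Beside them, 37.5% and 41.8% of all genes were called, 18.5% and 21.4% lower. SREBF1, the gene of SREBP1, read 9.18, 9.51 and 9.20 with scramble, 9.03, 9.08 and 8.77 with sh-34 and 9.08, 8.93 and 8.91 with sh-35. The hairpin samples were below the scramble samples and the falls of 0.34 (SE 0.11, limma adjusted p = 0.0338) and 0.32 (SE 0.11, limma adjusted p = 0.0385) passed. The second SREBF1 probe gave 0.11 with sh-34 and −0.35 with sh-35 and passed with neither (limma adjusted p = 0.565 and 0.0506). SCAP gave −0.11 (95% interval −0.29 to 0.08) and −0.07 (−0.26 to 0.12). INSIG2 read 8.86, 8.99 and 8.95 with scramble, 8.69, 8.97 and 8.79 with sh-34 and 8.50, 8.45 and 8.36 with sh-35. Its sh-35 samples were below all others, a fall of 0.50 (SE 0.09, limma adjusted p = 0.001), and the sh-34 change of −0.12 did not pass (limma adjusted p = 0.334).

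The 2 measured INSIG1 probes disagreed. The brighter read 11.38, 11.42 and 11.39 with scramble, 11.09, 11.11 and 11.20 with sh-34 and 11.51, 11.53 and 11.71 with sh-35, so sh-34 lay below scramble and sh-35 above it. Its sh-34 fall of 0.26 passed (SE 0.08, limma adjusted p = 0.0234), and the sh-35 change of 0.19 did not (SE 0.08, limma adjusted p = 0.0793). The dimmer read 8.20, 8.38 and 8.30 with scramble, 7.77, 7.75 and 7.65 with sh-34 and 7.40, 6.87 and 7.15 with sh-35. On that probe the groups descended in that order without overlap, with falls of 0.57 (SE 0.12, limma adjusted p = 0.00415) and 1.15 (SE 0.12, limma adjusted p = 2.44e-05). The direction of INSIG1 with sh-35 therefore depended on the probe.

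On the brightest probe of each gene, the fatty acid genes ACLY and SCD held the largest change with sh-34 and with sh-35 among the members. Of the 8 measured, 4 fell with sh-34, and with sh-35 5 fell and 1 rose, with medians of −0.21 and −0.48. The shares called were 50% and 75%, beside 37.5% and 41.8% of all genes, 18.5% and 21.4% lower. ACLY, which splits citrate into the acetyl-CoA that both routes use, read 12.53, 12.77 and 12.55 with scramble, 11.42, 11.70 and 11.40 with sh-34 and 12.26, 12.07 and 12.11 with sh-35. The 3 groups stood apart, with sh-34 lowest. ACLY fell 2.16-fold in the sh-34 samples, by 1.11 (SE 0.10, limma adjusted p = 1.39e-05), and by 0.47 with sh-35 (SE 0.10, limma adjusted p = 0.00358). A second probe gave falls of 1.00 and 0.52. SCD, which puts the double bond into stearic acid, showed the reverse order, with 13.86, 13.84 and 13.93 with scramble, 13.72, 13.44 and 13.65 with sh-34 and 13.03, 12.83 and 13.03 with sh-35. Its sh-34 fall was 0.28 (SE 0.09, limma adjusted p = 0.0386) and its sh-35 fall 0.92, or 1.89-fold (SE 0.09, limma adjusted p = 1.56e-05).

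ELOVL6, which elongates palmitic acid, fell with each hairpin. It read 11.89, 11.84 and 11.86 with scramble, 11.06, 11.28 and 11.23 with sh-34 and 11.30, 11.26 and 11.34 with sh-35. The scramble samples were close together and above all hairpin samples. The falls were 0.67 (SE 0.08, limma adjusted p = 6.96e-05) and 0.56 (SE 0.08, limma adjusted p = 0.000183), and those of the second probe 0.45 and 0.55. ACACA, the acetyl-CoA carboxylase, read 11.47, 11.65 and 11.44 with scramble, 11.34, 11.30 and 11.50 with sh-34 and 11.03, 11.14 and 10.94 with sh-35. Only the sh-35 samples were clear of the scramble range, a fall of 0.48 (SE 0.09, limma adjusted p = 0.00156), and the second probe fell by 0.66.

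ELOVL5 and the desaturase genes FADS1 and FADS2 act on long polyunsaturated fatty acids and did not move as one. ELOVL5 read 10.54, 10.60 and 10.72 with scramble, 10.98, 10.54 and 10.98 with sh-34 and 9.89, 10.18 and 10.34 with sh-35. The sh-34 group overlapped scramble and the sh-35 group lay below it, a fall of 0.48 (SE 0.14, limma adjusted p = 0.0142). FADS1 read 9.75, 9.68 and 9.76 with scramble, 9.74, 9.73 and 9.58 with sh-34 and 10.01, 9.95 and 10.14 with sh-35. It was the 1 member that rose, by 0.31 with sh-35 (SE 0.08, limma adjusted p = 0.0115); the adjusted p was 0.117 with median scaling and 0.0936 on the deposited log2 values. FADS2 read 7.13, 7.41 and 7.33 with scramble, 6.68, 6.81 and 6.93 with sh-34 and 7.13, 6.45 and 7.05 with sh-35. The sh-34 samples lay below scramble, a fall of 0.48 (SE 0.16, limma adjusted p = 0.0313), while sh-35 reached into the scramble range (−0.41, limma adjusted p = 0.0548). That sh-35 change was −0.20 without sh-35 replicate 2. It passed without scramble replicate 1 (−0.49, limma adjusted p = 0.0458), sh-35 replicate 1 (−0.54, 0.0227) or sh-35 replicate 3 (−0.50, 0.0449), and with median scaling, no background correction or an offset of 50 (limma adjusted p = 0.045, 0.0438 and 0.041).

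FASN, the synthase that assembles palmitic acid, read 13.51, 13.71 and 13.41 with scramble, 13.50, 13.50 and 13.38 with sh-34 and 13.35, 13.49 and 13.26 with sh-35. The groups overlapped, and the changes of −0.09 (95% interval −0.30 to 0.13) and −0.18 (−0.39 to 0.04) did not pass. With sh-35 FASN did pass under median scaling (−0.35, limma adjusted p = 0.0271) and on the deposited log2 values (−0.31, limma adjusted p = 0.0491). ACAT2, a thiolase that condenses acetyl-CoA ahead of HMGCS1, read 11.77, 11.75 and 11.65 with scramble, 11.62, 11.64 and 11.48 with sh-34 and 11.42, 11.24 and 11.18 with sh-35. The groups descended in that order, and the sh-35 fall of 0.45 passed (SE 0.09, limma adjusted p = 0.00166), while the sh-34 change of −0.15 did not (limma adjusted p = 0.215).

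The hairpins were compared directly, as sh-35 minus sh-34. Of the 29 members, 9 were lower with sh-35, 3 higher and 17 did not pass, a share called of 41.4% beside 42.7% of all genes, 22% lower and 20.7% higher. The samples of the hairpins did not overlap for 15 of 29 members, beside 52.8% of all genes. The differences nevertheless ran both ways within a route. ACLY was higher with sh-35 by 0.64 (SE 0.10, limma adjusted p = 0.000479), INSIG1 on its brighter probe by 0.45 (SE 0.08, limma adjusted p = 0.000866) and FADS1 by 0.35 (SE 0.08, limma adjusted p = 0.00544). On its dimmer probe INSIG1 was lower with sh-35, by a log2 difference of −0.59 (limma adjusted p = 0.00271). ELOVL5 was lower with sh-35 by a log2 difference of −0.70 (SE 0.14, limma adjusted p = 0.00178) and SCD by one of −0.64 (SE 0.09, limma adjusted p = 0.000237). Of members that fell with both hairpins, no difference passed on the brightest probe for HMGCS1 (0.05), MVD (−0.26), TM7SF2 (−0.16), NSDHL (−0.15), SREBF1 (0.02), DHCR7 (0.29) or ELOVL6 (0.11), with limma adjusted p from 0.0508 for DHCR7 to 0.917 for SREBF1. The DHCR7 difference passed under some alternatives, such as cyclic loess (limma adjusted p = 0.0391), and that of MVD without sh-34 replicate 3 (0.0279). The second SREBF1 probe was lower with sh-35 than with sh-34, at −0.46 (limma adjusted p = 0.0161).

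**Figure D3:**
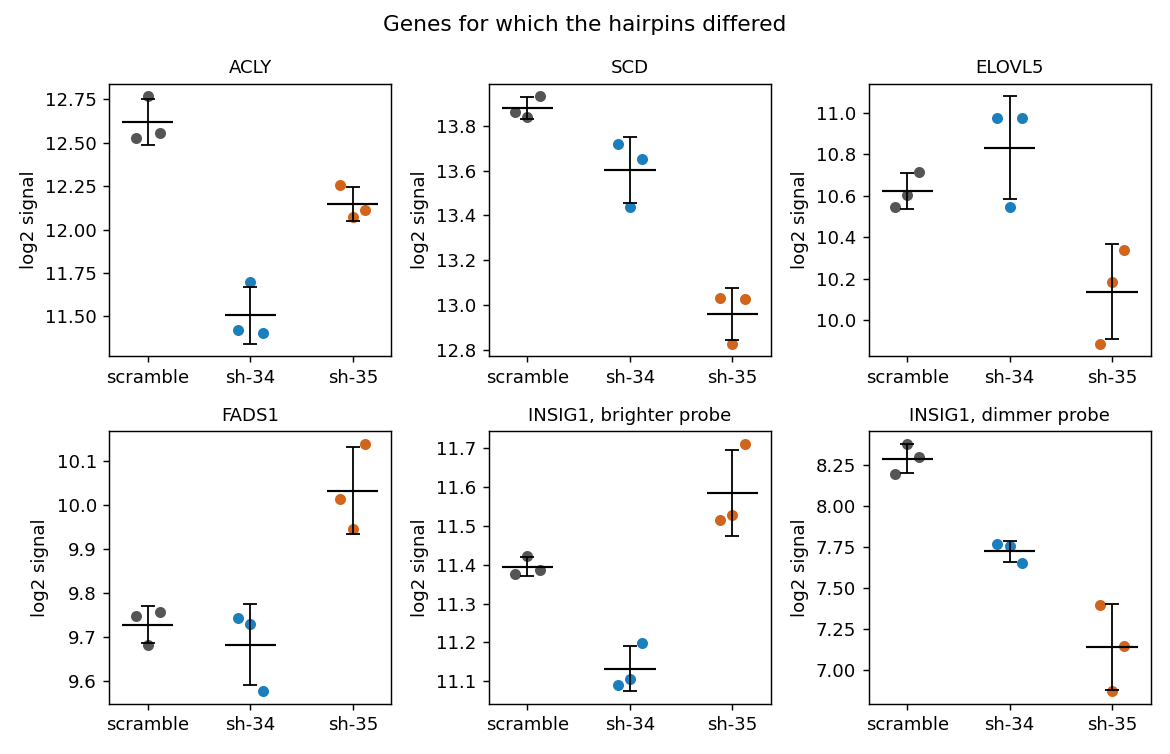
Log2 signal (vertical axis, scale set per panel) in each sample of scramble, sh-34 and sh-35 (horizontal axis) for ACLY, SCD, ELOVL5, FADS1 and both INSIG1 probes; lines and bars are the mean and SD of 3 samples. ACLY is lowest with sh-34 and SCD with sh-35, and the INSIG1 probes part with sh-35, at 0.19 and −1.15 against scramble.

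Some of these calls held in every alternative processing and with any 1 sample left out, and others did not. With sh-34, 6 of 12 held: ACLY, DHCR7, ELOVL6, HMGCS1, MVD and TM7SF2. The other 6 were all lost without scramble replicate 2. They were also all lost without the filter on dim probes (limma adjusted p from 0.0555 to 0.0897). The IDI1 call was lost without scramble replicate 1 or 2 or any 1 sh-34 sample (limma adjusted p from 0.0732 to 0.134). That of NSDHL was lost without scramble replicate 2 or 3 or any 1 sh-34 sample (0.0525 to 0.117). For SCD it was any 1 scramble sample or sh-34 replicate 2 or 3 (0.0569 to 0.159), and for SREBF1 scramble replicate 2 or sh-34 replicate 3 (0.129 and 0.136). As the mean of its probes, SREBF1 read −0.12 with sh-34 and did not pass (limma adjusted p = 0.443). INSIG1 and FADS2 lost theirs without scramble replicate 2 or 3 or sh-34 replicate 1 or 2 (0.0539 to 0.0713 for INSIG1 and 0.0701 to 0.102 for FADS2).

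With sh-35, 15 of 20 calls held under every alternative and without any 1 sample, all but those of SC5D, DHCR7, SREBF1, ELOVL5 and FADS1. SC5D lost its call without any 1 sh-35 sample, scramble replicate 1 or 2, or sh-34 replicate 3 (limma adjusted p from 0.0503 to 0.112). DHCR7 lost it without scramble replicate 2 or 3 or sh-35 replicate 1 (0.0522 to 0.0669), and ELOVL5 without scramble replicate 3 or sh-35 replicate 1 (0.0504 and 0.0584). SREBF1 lost it without scramble replicate 2 or sh-35 replicate 2 or 3 (0.0974 to 0.15). Its call was also lost with cyclic loess (limma adjusted p = 0.0515) and without the filter on dim probes (0.0922). That of SC5D was also lost without this filter (0.0758) and with only the groups compared (0.0648). Of the differences between hairpins, 5 of 12 held throughout: ACLY, ELOVL5, FADS1, LSS and SCD.

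The authors' deposited table of 358 probes changed with both hairpins, of 48803 on the array, holds 6 probes of 5 members. By that table, ACLY stood at ratios to scramble of 0.468 and 0.433 on its 2 probes with sh-34 and 0.652 and 0.675 with sh-35. The authors' deposited table gives ELOVL6 at 0.579 and 0.635, DHCR7 on its dimmer probe at 0.623 and 0.664, and HMGCS1 at 0.673 and 0.704. The INSIG1 probe in the authors' deposited table is the dimmer one, at 0.684 with sh-34 and 0.511 with sh-35. All 5 genes are below scramble there with both hairpins. That table was made from the same 9 samples, so it is not separate evidence. How many of all 358 probes lie below scramble is not given here.

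Neighbouring lipid pathways were counted in the same way. Of all genes, 37.5% were called with sh-34 and 41.8% with sh-35, 18.5% and 21.4% lower. Among sterol uptake and other sterol genes, 5 of 12 listed genes were measured. With sh-34 0 passed, and with sh-35 3 fell and 1 rose, shares called of 0% and 80%. SCARB1, the receptor that takes up cholesterol from high-density lipoprotein, read 10.76, 11.00 and 10.98 with scramble, 10.68, 10.74 and 10.78 with sh-34 and 9.95, 9.78 and 9.89 with sh-35. Its sh-35 samples were far below the others, a fall of 1.04 (SE 0.09, limma adjusted p = 3.97e-06), and MYLIP, a ligase that degrades lipoprotein receptors, rose by 0.62 with sh-35 (SE 0.14, limma adjusted p = 0.00374). Among 8 measured genes of cholesterol efflux and storage, 2 fell and 1 rose with sh-34, and 3 fell and 1 rose with sh-35. For that list the shares called were 37.5% and 50%. NPC2, which hands cholesterol out of lysosomes, read 14.25, 14.13 and 14.25 with scramble, 13.19, 13.00 and 12.98 with sh-34 and 14.14, 14.13 and 14.22 with sh-35. The sh-34 samples stood alone, a fall of 1.16 (SE 0.08, limma adjusted p = 2.18e-06), and its membrane partner NPC1 rose in the sh-34 samples by 0.41 (SE 0.08, limma adjusted p = 0.00141).

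Of 6 measured genes of SREBP processing and its partner factors, 1 fell with sh-34, and 2 fell and 1 rose with sh-35. Shares called were 16.7% and 50%, beside 37.5% and 41.8% of all genes. NFYA, the sequence-specific subunit of the CCAAT-binding factor, read 8.17, 7.66 and 7.88 with scramble, 7.28, 7.36 and 7.65 with sh-34 and 7.19, 7.14 and 7.45 with sh-35. Its hairpin samples were below the scramble samples, with falls of 0.47 (SE 0.14, limma adjusted p = 0.02) and 0.65 (SE 0.14, limma adjusted p = 0.00308), and the sh-34 call was lost without scramble replicate 1 (limma adjusted p = 0.0763), sh-34 replicate 1 (0.0713) or sh-34 replicate 2 (0.0635), and without the filter on dim probes (0.0558). Its partner NFYC rose by 0.43 with sh-35 (SE 0.10, limma adjusted p = 0.00458). Of 13 measured genes of lipid precursor supply, 2 fell with sh-34, and 4 fell and 2 rose with sh-35. Shares called there were 15.4% and 46.2%, beside the same shares of all genes. SLC25A1, which exports the citrate that ACLY splits, read 10.72, 10.76 and 10.70 with scramble, 10.86, 10.68 and 10.82 with sh-34 and 9.74, 9.97 and 9.79 with sh-35. It fell with sh-35 alone, by 0.90 (SE 0.09, limma adjusted p = 9.01e-06), and the difference from sh-34 passed (−0.96, limma adjusted p = 6.55e-06), in the opposite order to ACLY. ME1, a malic enzyme that makes NADPH, fell with both, by 0.23 and 0.65 (limma adjusted p = 0.0323 and 3.6e-05). The ME1 call with sh-34 was lost without scramble replicate 2 or 3 or any 1 sh-34 sample (limma adjusted p from 0.071 to 0.112), without the filter on dim probes (0.0702) and with the replicate number as a block (0.0521).

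For 8 measured genes of triglyceride and phospholipid synthesis, 2 fell with sh-34, and 2 fell and 1 rose with sh-35. Shares called were 25% and 37.5%, below the 37.5% and 41.8% of all genes. The 2 that fell were CHKA and PCYT2 with each hairpin, enzymes that prepare choline and ethanolamine for phospholipids. Falls were 0.71 and 0.40 for CHKA and 0.56 and 0.67 for PCYT2. The CHKA call with sh-35 was lost on the deposited log2 values (limma adjusted p = 0.0611). Of 10 measured fatty acid oxidation genes, 1 fell and 2 rose with sh-34, and 3 fell with sh-35. Their share called, 30% with each hairpin, was below the 37.5% and 41.8% of all genes. ACADM, a medium-chain acyl-CoA dehydrogenase, read 11.45, 11.36 and 11.26 with scramble, 10.30, 10.23 and 10.29 with sh-34 and 11.14, 11.08 and 11.15 with sh-35. The sh-34 fall was 1.08 (SE 0.08, limma adjusted p = 2.17e-06) and the sh-35 fall 0.23 (SE 0.08, limma adjusted p = 0.0347). The ACADM call with sh-35 was lost without scramble replicate 1 or 2 or any 1 sh-35 sample (limma adjusted p from 0.058 to 0.119), without the filter on dim probes (0.0752) and with only the groups compared (0.0604). As the mean of its probes ACADM read −0.11 with sh-35 (limma adjusted p = 0.265), and with median scaling −0.36. The median change of the 6 neighbouring lists lay between −0.15 and 0.05 with sh-34 and between −0.38 and 0.06 with sh-35. The lists' shares were not tested against those of the synthesis genes.

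**Figure D4:**
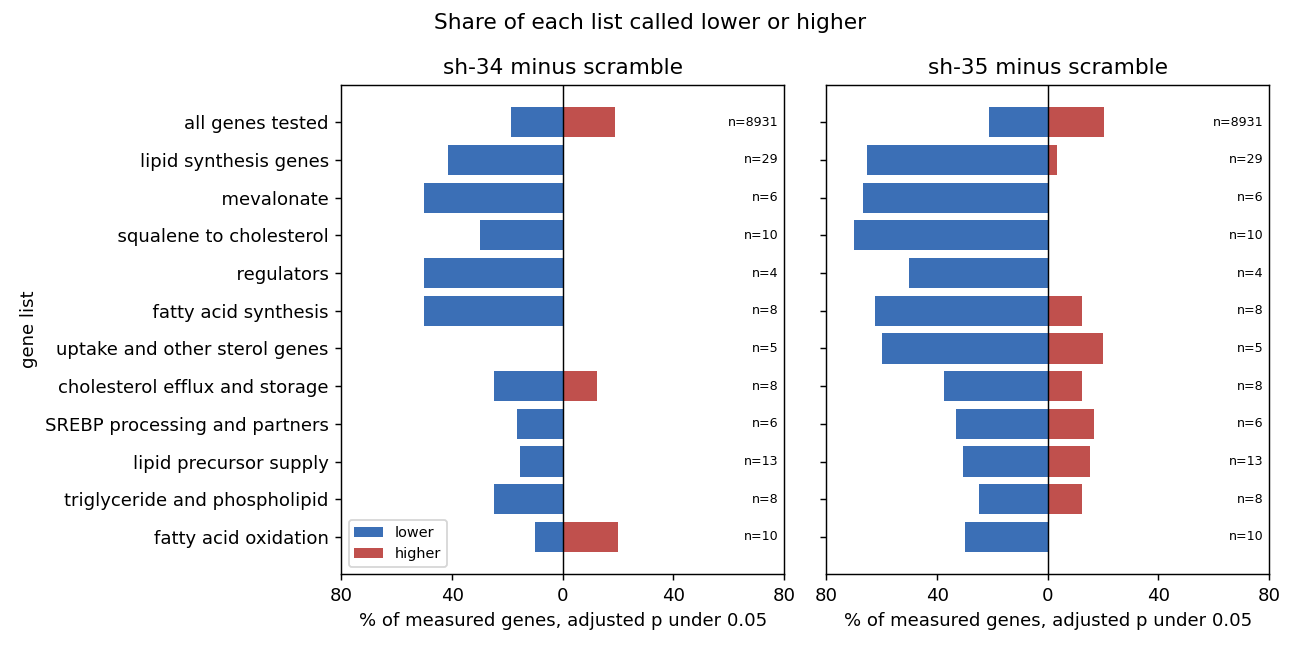
Share of measured genes (horizontal axis, percent) called lower (blue, left of 0) or higher (red, right of 0) in each list (vertical axis; n is the number measured), for sh-34 and sh-35 against scramble. All tested genes split about evenly at 18.5% lower with sh-34 and 21.4% with sh-35, while the synthesis genes reach 41.4% and 65.5% lower. Uptake and other sterol genes, 5 measured, stand at 0% and 60% lower.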

How the data were processed

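Illumina bead arrays of 9 MCF10A samples were analysed, 3 each of scramble, sh-34 and sh-35, grouped by their labels. The deposited signal table holds an intensity and a detection p-value per probe and sample, per the file headers. Values of the deposited series matrix are on the log2 scale, each the log2 intensity less the probe's median plus 5.62. A further deposited table gives the authors' ratio to scramble for 358 probes. BeadStudio and Partek are named in the submitters' processing notes, with versions not given in the sources used here.

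Intensities were background corrected with limma's normal-exponential model (offset 16, noise from detection p-values) and quantile normalized on the log2 scale. Of 48803 probes, 28098 had a single symbol, 13 several and 20692 none here. Probes with detection p under 0.01 on at least 3 of 9 arrays were kept (12866), the brightest per gene, leaving 8931 genes. The limma 3.58.1 model (R 4.3.3) had a term for each group, 6 residual degrees of freedom and 5.42 prior ones. A call is a Benjamini-Hochberg adjusted p under 0.05 over all genes. For a gene's second or dimmer probe, the same model was fitted to all 12866 kept probes and the adjustment ran over those. On simulated data for sh-34 minus scramble over 8931 genes, 59% of 100 genes changed by 0.5 on the log2 scale and 97% of 100 changed by 1 were called, with 3.11% of calls false. Only those genes were changed in the simulation, and its noise was independent between genes. In the data 37.5% of genes were called, so these rates need not hold there. The number of arrays limits precision.

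The members, gene lists and tests were chosen with earlier results of these data known. Named genes were the members, RND1, and up to 4 genes of each other list with the smallest p for the mean of both hairpins. Not every one is named. Promoter windows came from RefSeq (GRCh38.p14). Replicate numbers did not pair samples (same-number correlations of −0.0240 to 0.0529). The alternatives were median scaling, cyclic loess, no background correction, an offset of 50, the series matrix values, 2 other filters, the mean of a gene's probes, only the groups compared, a replicate block, and each sample left out.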

Additional observations from a re-analysis of the deposited data

Results flagged for a closer look

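For 12 members the change against scramble differed between the hairpins, tested as sh-35 minus sh-34 in the limma model over all genes (adjusted p under 0.05); 42.7% of all genes passed the same test. ACLY, INSIG1 on its brighter probe and FADS1 were higher with sh-35, by 0.64, 0.45 and 0.35 on the log2 scale. The dimmer INSIG1 probe was lower with sh-35 than with sh-34, at −0.59 (limma adjusted p = 0.00271). In the sterol route the log2 differences were −0.26 for IDI1, −0.46 for LSS, −0.36 for CYP51A1, −0.31 for SC5D and −0.30 for ACAT2. INSIG2 differed by −0.38, ACACA by −0.34, SCD by −0.64 and ELOVL5 by −0.70. The SC5D change was 0.10 with sh-34 and −0.21 with sh-35, and that of ELOVL5 was 0.21 and −0.48, so these 2 lay on opposite sides of scramble, although neither passed with sh-34.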

How the results depend on the processing

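Without the filter on dim probes, 6 of 31 members were called with sh-34, all lower. Of all genes, 15.1% were then called and 7.59% were lower. The cause of the smaller count was not tested. Leaving out 1 sample gave 6 to 12 members called with sh-34, 17 to 20 with sh-35, 13 to 17 for the mean of both and 9 to 14 between the hairpins. The members' median then ran from −0.26 to −0.14, −0.47 to −0.37, −0.34 to −0.26 and −0.19 to −0.05, and the genes called over all from 2737 to 3362, 3220 to 3680, 2923 to 3481 and 3209 to 3812. Members that passed only under an alternative or with a sample left out were FDPS, MSMO1 and EBP with sh-34 and FASN, FADS2 and INSIG1 with sh-35. For the mean of both hairpins they were EBP, FASN and INSIG1, and between the hairpins FDPS, DHCR7, MSMO1, PMVK and MVD. With the mean of a gene's probes INSIG1 turned to −0.48 for sh-35 minus scramble (limma adjusted p = 0.000762) and to −0.0678 for sh-35 minus sh-34 (adjusted p = 0.542), because its probes disagree. With replicate number as a block, 11, 19, 17 and 12 members were called in the 4 comparisons, beside 36.9%, 41.3%, 39.7% and 42.2% of all genes. Calls lost under the block were IDI1 with sh-34 (adjusted p = 0.0601) and between hairpins (0.0676), SC5D with sh-35 (0.0514) and CYP51A1 for the mean of both (0.0515), and the DHCR7 difference between hairpins passed (0.0192). Over all alternatives 6 to 14 members were called with sh-34 and 17 to 21 with sh-35. Of the genes called between the hairpins, 48.6% were higher with sh-35, or 60.4% on the series matrix values. FADS2 and the SREBF2 and STARD4 probes lay near background, which limits what can be said of them.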
